A study of Drosophila melanogaster with 17 samples.

Results

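The E2F and retinoblastoma (Rb) factors of the fly were followed in adult brains, with the fly counterparts of human PCAF and TRIM28. The study links both human proteins to nuclear tyrosyl-tRNA synthetase (TyrRS). Called factors here, the genes followed are E2f1, E2f2, Dp, Rbf, Rbf2, Gcn5 (for PCAF) and bonus (bon, for TRIM28). They are 7 of the 17559 genes in the count table. The rule that picked them used gene symbols and no measured value, and was set with earlier results of these data known. All 7 had counts and were among the 16163 genes tested. Whole dissected brains of Drosophila melanogaster aged 10 days were profiled by poly(A) RNA sequencing in 17 libraries. All flies carried the nSyb-Gal4 driver, which is active in all neurons and drives human TyrRS, the enzyme that charges tRNA with tyrosine and is mutated in a form of Charcot-Marie-Tooth neuropathy. TyrRS-E196K flies carried 1 copy of a transgene with that disease mutation (n = 4) and TyrRS-WT flies carried 2 copies of the unmutated transgene (n = 3). TyrRS-E196K-∆NLS flies had 3 copies (n = 4) and TyrRS-WT-∆NLS flies had 2 copies (n = 3) of versions with a disrupted nuclear localization signal (NLS). The GEO labels give these last genotypes as E196K-NLS and WT-NLS. Control flies carried the driver alone (n = 3). TyrRS-WT and TyrRS-WT-∆NLS had the same copy number. In every other comparison copy number differed together with the genotype, and the effects of these cannot be told apart. According to the study, the human transgenes driven in all neurons were expressed at comparable levels, with TyrRS-WT-∆NLS slightly lower. Several lines were made per construct, and the line used for each library is not given in the sources used here.

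In flies as in mammals, E2F proteins bind DNA as dimers with Dp at the promoters of genes for DNA replication and the cell cycle. Rb proteins, also called pocket proteins, hold E2F in check until cyclin-dependent kinases phosphorylate them. In human cells, acetylation of E2F1 raises its activity, and nuclear TyrRS is known to bind TRIM28 there, a cofactor that recruits deacetylases. According to the study, PCAF mediates acetylation of TyrRS itself, which favours its presence in the nucleus. Neurons of the adult brain have left the cell cycle, and the comparisons below ask whether the transcripts of these factors differ with TyrRS, with its mutation or with its NLS.

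The libraries held 29380481 to 56030758 counts on genes. Between 4.87 and 6.32% of counted fragments were ambiguous between genes and 2.57 to 3.8% fell in no gene. No pair of libraries of a genotype agreed within sampling noise. Levels are given as CPM, the counts of a gene scaled to a common library total. Nothing in the labels says which flies went into which library, so that p-values measure the spread between libraries. One column of counts was taken as a TyrRS-WT-∆NLS library by the prefix of its name alone and is called the unnumbered one here. Its number is in no label, and the label left without a column carries the number of a library of that genotype that the study's methods name as removed. The 10 neuronal markers summed to between 8324 and 12260 CPM in every library. The 10 photoreceptor markers summed to between 8666 and 22450 CPM although the tissue is labelled as brain, and 8 fat body markers to between 13660 and 53220 CPM.

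The mean transcript level of a factor differed between its highest and lowest genotype by 1.01 times for Dp, 1.06 times for E2f2, 1.10 times for Rbf, 1.11 times for bon, 1.12 times for E2f1, 1.24 times for Gcn5 and 1.30 times for Rbf2. A single difference passed the test, that of Gcn5 between TyrRS-E196K and TyrRS-E196K-∆NLS (edgeR quasi-likelihood test, adjusted p under 0.05 after Benjamini-Hochberg adjustment over all genes tested). That is 1 of 7 factors, where 5.6% of all genes passed. In each of the other comparisons 0 of 7 factors passed. Of all genes, 2.3% passed in TyrRS-WT against control, 6.35% in TyrRS-E196K against control, 3.84% in TyrRS-WT-∆NLS against control and 4.79% in TyrRS-E196K-∆NLS against control. Likewise 1.62% passed in TyrRS-E196K against TyrRS-WT, 1.2% in TyrRS-WT against TyrRS-WT-∆NLS, 1.41% in TyrRS-E196K-∆NLS against TyrRS-WT-∆NLS and 1.53% for the interaction, which asks whether the NLS difference is larger with the mutation than without. At an unadjusted p under 0.05 the factors past it in edgeR were 2 in TyrRS-E196K against control (Rbf and Gcn5). They were 2 in TyrRS-E196K against TyrRS-E196K-∆NLS (the same ones) and 0 in the other comparisons. Such unadjusted p-values were common among the 16163 genes tested. In TyrRS-E196K 3240 genes were past it against control and 2906 against TyrRS-E196K-∆NLS, and 1516 to 2682 genes in each of the other comparisons. DESeq2 also called Gcn5 in TyrRS-E196K against control, and no factor in the other comparisons with a count of 0. The 4 comparisons with control share its 3 libraries.

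**Figure D1:**
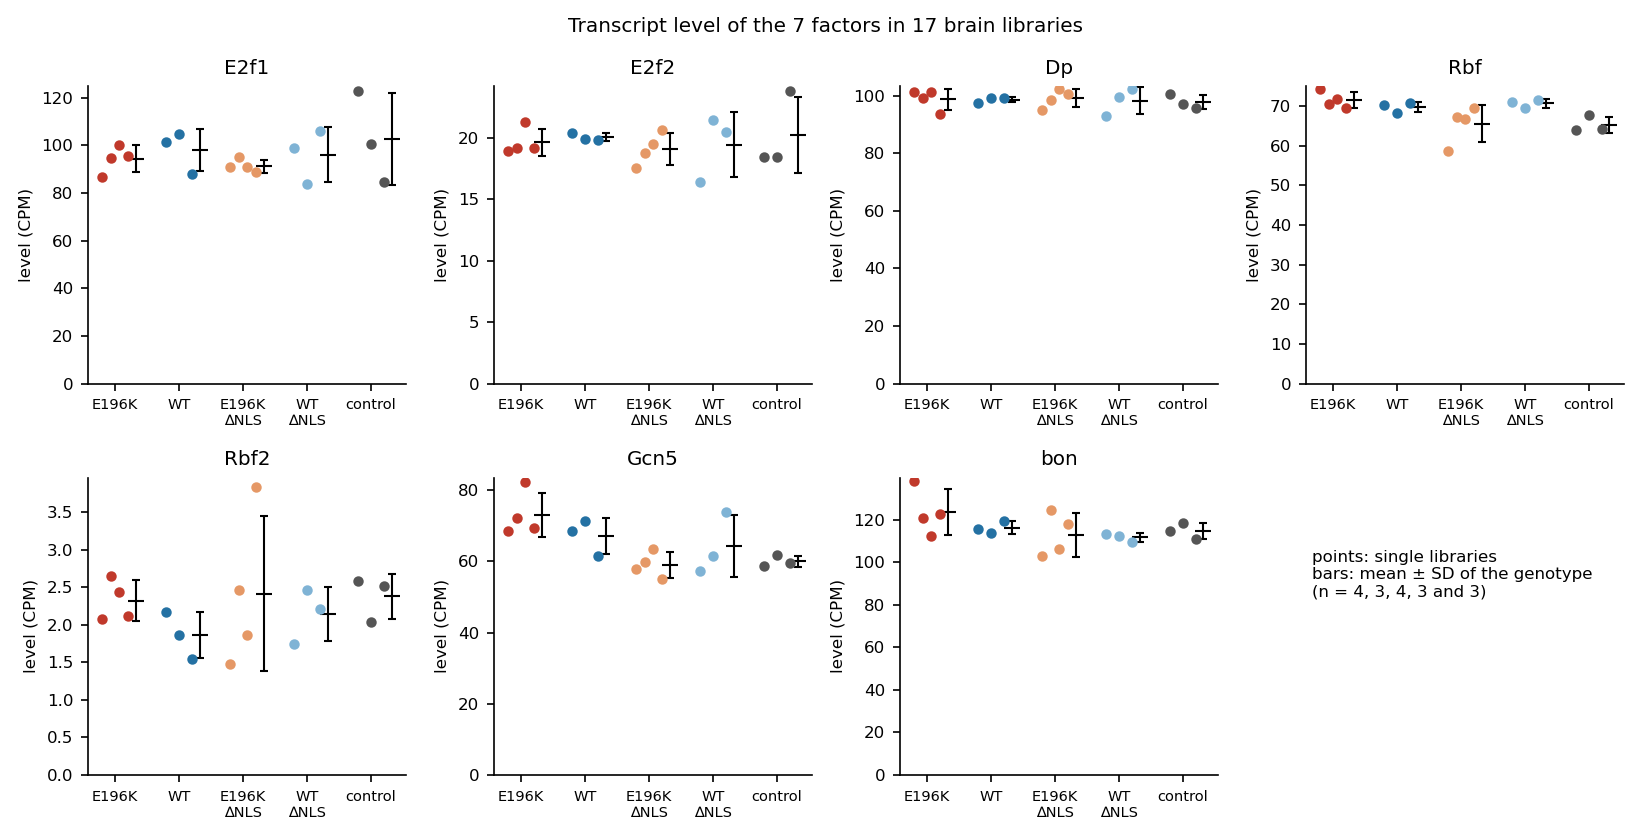
Transcript level in CPM (vertical axes, each starting at 0) of the 7 factors in every library, by genotype. Points are single libraries and bars show the mean ± SD of the genotype. The Gcn5 libraries of TyrRS-E196K, at 68.6 to 82.2 CPM, lie above those of TyrRS-E196K-∆NLS, at 55.0 to 63.4 CPM, while Dp stays between 93.2 and 103 CPM throughout.

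E2f1 is the activating E2F of the fly and drives S phase genes. It lies on chromosome 3R at 21620304 to 21660871, minus strand (FBgn0011766, BDGP6, as the other positions here). E2f1 had 86.7, 94.8, 100.3 and 95.4 CPM in TyrRS-E196K brains, 101, 105 and 88.0 CPM in TyrRS-WT brains, 90.8, 95.0, 90.7 and 88.6 CPM in TyrRS-E196K-∆NLS brains, 98.9, 83.6 and 106 CPM in TyrRS-WT-∆NLS brains, and 123, 100.4 and 84.6 CPM in control brains. The control libraries had the widest range and held the highest E2f1 library of all, and every genotype overlapped with every other. By mean level, high to low, the order was control, TyrRS-WT, TyrRS-WT-∆NLS, TyrRS-E196K and TyrRS-E196K-∆NLS, with 91.3 ± 2.69 CPM in TyrRS-E196K-∆NLS and 103 ± 19.3 CPM in control brains (SD, n = 4 and n = 3). Against control, the log2 fold change of E2f1 was -0.12 in TyrRS-E196K (95% interval -0.34 to 0.10, edgeR adjusted p = 0.563) and -0.17 in TyrRS-E196K-∆NLS (-0.39 to 0.05). A change of E2f1 of the size at the ends of these intervals could not be told from none. Exons of E2f1 share 283 bp with an antisense RNA, asRNA:CR46055, and the libraries are unstranded, so that reads there cannot be assigned.

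E2f2, a repressor-type E2F that keeps genes off in resting and differentiated cells, was expressed at a lower level. It lies on chromosome 2L at 21154293 to 21156749, minus strand (FBgn0024371). E2f2 had 18.9, 19.2, 21.3 and 19.2 CPM in TyrRS-E196K brains, 20.4, 19.9 and 19.8 CPM in TyrRS-WT brains, 17.6, 18.7, 19.4 and 20.6 CPM in TyrRS-E196K-∆NLS brains, 16.4, 21.4 and 20.4 CPM in TyrRS-WT-∆NLS brains, and 18.4, 18.4 and 23.8 CPM in control brains. Its 3 TyrRS-WT libraries lay closest together and 1 control library was the highest. None of the 9 comparisons of E2f2 passed the test, with log2 fold changes between -0.08 and 0.05 and intervals between -0.31 and 0.30. Its exons share 399 bp (19.9%) with those of Mpp6 on the other strand, a gene at 2.18 to 4.32 CPM. Across the 17 libraries the log2 levels of E2f1 and E2f2 had a Pearson correlation of -0.33, and of -0.46 after removal of the genotype means, a description over libraries that differ in depth and in the markers above.

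Dp, the partner that both E2F proteins need to bind DNA, lies on chromosome 2R at 13222433 to 13228202, plus strand (FBgn0011763). Dp had 101, 99.2, 101 and 93.7 CPM in TyrRS-E196K brains, 97.7, 99.2 and 99.1 CPM in TyrRS-WT brains, 95.0, 98.7, 103 and 101 CPM in TyrRS-E196K-∆NLS brains, 93.2, 99.5 and 102 CPM in TyrRS-WT-∆NLS brains, and 101, 97.1 and 95.9 CPM in control brains. The genotypes overlapped throughout and the highest library of Dp was 1.10 times the lowest. Its SD over libraries, 0.042 on the log2 scale, was below that of all but 0.1% of the 6878 genes that averaged 10 CPM or more. Over the 9 comparisons, log2 fold changes of Dp ran from -0.01 to 0.02, and the widest interval was -0.18 to 0.16.

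Rbf, the fly counterpart of the human RB1 tumour suppressor, binds both E2f1 and E2f2 and lies on the X chromosome at 797090 to 801479, minus strand (FBgn0015799). Rbf had 74.2, 70.5, 71.7 and 69.4 CPM in TyrRS-E196K brains, 70.1, 68.2 and 70.8 CPM in TyrRS-WT brains, 58.7, 67.2, 66.6 and 69.5 CPM in TyrRS-E196K-∆NLS brains, 70.9, 69.4 and 71.5 CPM in TyrRS-WT-∆NLS brains, and 63.9, 67.6 and 64.1 CPM in control brains. Every Rbf library of TyrRS-E196K, TyrRS-WT and TyrRS-WT-∆NLS lay above the control libraries, while those of TyrRS-E196K-∆NLS overlapped with control. The log2 fold change of Rbf against control was 0.13 ± 0.062 in TyrRS-E196K (SE, interval 0.00 to 0.26, edgeR adjusted p = 0.241), 0.10 in TyrRS-WT (-0.04 to 0.24) and 0.12 in TyrRS-WT-∆NLS (-0.02 to 0.25). In TyrRS-E196K-∆NLS it was 0.01 (-0.12 to 0.14). Between TyrRS-E196K and TyrRS-E196K-∆NLS the Rbf difference was 0.13 (0.01 to 0.25, edgeR adjusted p = 0.255), and the interaction was 0.14 (-0.04 to 0.33). None of these passed the adjusted test.

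Such gaps between libraries were common in these data. Beside Rbf, the genotypes did not overlap for Gcn5 in TyrRS-E196K against control and against TyrRS-E196K-∆NLS, and for bon in TyrRS-WT against TyrRS-WT-∆NLS. For TyrRS-WT, TyrRS-E196K, TyrRS-WT-∆NLS and TyrRS-E196K-∆NLS against control this was 1, 2, 1 and 0 of 7 factors, where 15.7%, 17.3%, 18.5% and 15.0% of all genes did not overlap. For TyrRS-E196K against TyrRS-WT it was 0 of 7 (12.1% of genes), against TyrRS-E196K-∆NLS 1 of 7 (13.1%), for TyrRS-WT against TyrRS-WT-∆NLS 1 of 7 (13.5%) and for TyrRS-E196K-∆NLS against TyrRS-WT-∆NLS 0 of 7 (12.2%).

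Rbf2, a second pocket protein that in fly cells pairs with E2f2, had the lowest level of the 7. It lies on chromosome 3R at 15965446 to 15968138, plus strand (FBgn0038390), and had 65 to 177 counts per library. Rbf2 had 2.08, 2.65, 2.44 and 2.12 CPM in TyrRS-E196K brains, 2.17, 1.87 and 1.55 CPM in TyrRS-WT brains, 1.48, 2.47, 1.87 and 3.84 CPM in TyrRS-E196K-∆NLS brains, 1.75, 2.46 and 2.21 CPM in TyrRS-WT-∆NLS brains, and 2.58, 2.04 and 2.52 CPM in control brains. The TyrRS-E196K-∆NLS libraries included both the lowest and the highest Rbf2 level of all. In TyrRS-WT against control the log2 fold change of Rbf2 was -0.35 (interval -0.92 to 0.21, edgeR adjusted p = 0.664), so that a change of nearly 1 log2 unit could not be told from none at this depth. The log2 level of Rbf2 had a correlation of 0.73 with the summed level of 10 dividing cell markers over the 17 libraries, and of 0.80 within genotypes (a description). The same TyrRS-E196K-∆NLS library, replicate 4, was the highest for both, at 61.4 CPM for the markers against 31.5 to 48.5 CPM in the other TyrRS-E196K-∆NLS libraries. Depending on the genotype, 3 to 5 of these 10 markers were under 1 CPM in all of its libraries. The correlation of Rbf2 with the photoreceptor marker sum was -0.29 over the 17 libraries, and -0.75 within genotypes.

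Per kilobase of exon, which allows the genes to be set beside each other, the mean level over all libraries was 30.9 CPM per kb for Dp, 23.4 for Gcn5, 19.96 for bon, 18.9 for Rbf, 14.9 for E2f1, 9.81 for E2f2 and 0.832 for Rbf2. Rbf was thus by far the more abundant pocket protein transcript of the pair. Per kilobase, the ratio of E2f1 to E2f2 averaged 1.49 in TyrRS-E196K, 1.51 in TyrRS-WT, 1.48 in TyrRS-E196K-∆NLS, 1.54 in TyrRS-WT-∆NLS and 1.57 in control brains. Single control libraries ran from 1.10 to 2.07 in this ratio, a range that holds all libraries of the other genotypes. The ratio of E2f1 to Rbf averaged 0.740 in TyrRS-E196K, 0.786 in TyrRS-WT, 0.783 in TyrRS-E196K-∆NLS, 0.760 in TyrRS-WT-∆NLS and 0.873 in control brains, where single libraries ran from 0.740 to 1.08 and overlapped with those of every other genotype.

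**Figure D2:**
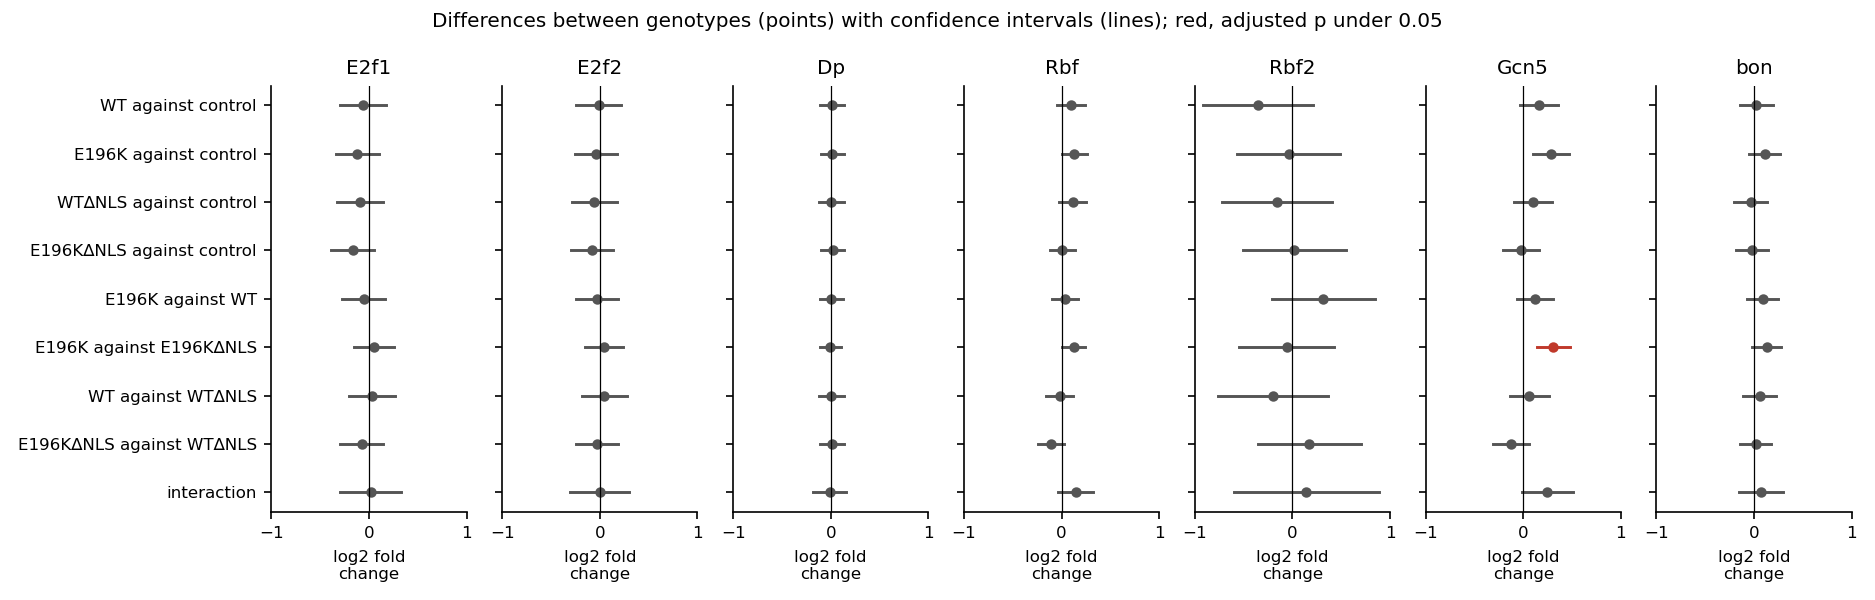
Log2 fold change (horizontal axes) of each factor in 8 comparisons of genotypes and in the interaction, with 95% intervals from the edgeR fit. Points right of 0 are higher in the genotype named first. The only interval in red, with an adjusted p under 0.05, is Gcn5 in TyrRS-E196K against TyrRS-E196K-∆NLS at 0.31, and the intervals of Rbf2 are the widest.

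Gcn5, a histone acetyltransferase of the SAGA, ADA and ATAC complexes, belongs to the enzyme family that acetylates E2F1 in human cells. It lies on chromosome 3L at 12521129 to 12524014, minus strand (FBgn0020388), and shares 28 bp of exon with ver. Gcn5 had 68.6, 72.1, 82.2 and 69.5 CPM in TyrRS-E196K brains, 68.7, 71.5 and 61.6 CPM in TyrRS-WT brains, 57.9, 59.7, 63.4 and 55.0 CPM in TyrRS-E196K-∆NLS brains, 57.4, 61.6 and 74.0 CPM in TyrRS-WT-∆NLS brains, and 58.8, 61.9 and 59.6 CPM in control brains. Every TyrRS-E196K library was above every TyrRS-E196K-∆NLS and every control library, while the TyrRS-WT and TyrRS-WT-∆NLS libraries overlapped with those of the other genotypes. The means were 73.1 ± 6.27 CPM in TyrRS-E196K, 67.2 ± 5.10 CPM in TyrRS-WT, 64.3 ± 8.63 CPM in TyrRS-WT-∆NLS, 59.0 ± 3.52 CPM in TyrRS-E196K-∆NLS and 60.0 ± 1.60 CPM in control brains (SD, n = 4, 3, 3, 4 and 3). By these the order was TyrRS-E196K, TyrRS-WT, TyrRS-WT-∆NLS, control and TyrRS-E196K-∆NLS, and each neighbouring pair in it overlapped.

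Gcn5 was 1.24 times as high in TyrRS-E196K as in TyrRS-E196K-∆NLS brains (log2 fold change 0.31 ± 0.082 SE, interval 0.14 to 0.48, edgeR adjusted p = 0.0308). Against control it was 1.22 times as high in TyrRS-E196K (0.28 ± 0.089, interval 0.10 to 0.47, adjusted p = 0.0644), which did not pass. Gcn5 differed by 0.16 in TyrRS-WT against control (-0.04 to 0.36), by 0.12 in TyrRS-E196K against TyrRS-WT (-0.07 to 0.31) and by 0.06 in TyrRS-WT against TyrRS-WT-∆NLS (-0.13 to 0.26), and none of these passed. The interaction of Gcn5 was 0.25 (-0.02 to 0.51, edgeR adjusted p = 0.461), so that the NLS difference was not shown to be larger with the mutation than without it. In whole brains, a difference in the number of cells that express Gcn5 and one in Gcn5 RNA per cell cannot be told apart.

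The call on Gcn5 depended on single libraries. Without TyrRS-E196K replicate 3 the difference from TyrRS-E196K-∆NLS was 0.25 (edgeR adjusted p = 0.117). It was also lost without TyrRS-E196K replicate 2 (0.0616) and without TyrRS-E196K-∆NLS replicates 1 (0.0782), 2 (0.0671) or 4 (0.0925), with log2 fold changes of Gcn5 between 0.28 and 0.32. As a sum, fat body markers moved opposite to Gcn5 between TyrRS-E196K and TyrRS-E196K-∆NLS. The 8 markers summed to 13660 to 34700 CPM in TyrRS-E196K and to 39410 to 53220 CPM in TyrRS-E196K-∆NLS, without overlap, and to 28650 to 35820 CPM in control brains. Of these 8 markers 7 were lower by value in TyrRS-E196K than in TyrRS-E196K-∆NLS and 1, the lipoprotein gene apolpp (Rfabg in the files), passed the test (-0.72, edgeR adjusted p = 0.00961). The fat body gene Fbp1 was at 0.403 to 1.28 CPM in TyrRS-E196K and at 0.522 to 0.737 CPM in TyrRS-E196K-∆NLS, while the yolk protein gene Yp1 was at 1900 to 6102 CPM and 7000 to 8428 CPM in the same genotypes. The 9 glial markers summed to 3476 to 4017 CPM in TyrRS-E196K, 3966 to 4522 CPM in TyrRS-E196K-∆NLS and 3876 to 4284 CPM in control brains. Of the 9, 3 were higher by value in TyrRS-E196K than in TyrRS-E196K-∆NLS and 1 passed the test, downward. It was the astrocyte gene alrm, which fell by 0.53 on the log2 scale (edgeR adjusted p = 0.00581). Against control alrm fell by 0.45, and of the 9 markers 2 were higher by value there and 2 passed downward.

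Over the 17 libraries, log2 Gcn5 had a correlation of -0.78 with the fat body sum and of -0.80 with the glial sum, and of -0.74 and -0.73 within genotypes (descriptions over libraries that share one normalization). The TyrRS-E196K, TyrRS-WT and TyrRS-WT-∆NLS libraries with the lowest fat body sums, at 13660, 20850 and 21110 CPM, were each the highest in Gcn5 of their genotype, at 82.2, 71.5 and 74.0 CPM. In TyrRS-E196K-∆NLS the library with the lowest sum (39410 CPM) was also the highest in Gcn5 (63.4 CPM). Control went the other way, with 58.8 CPM of Gcn5, its lowest level, at the lowest sum (28650 CPM) and 61.9 CPM, its highest, at the highest sum (35820 CPM). With the log2 fat body sum as a covariate, a fit chosen after these values were seen, the Gcn5 difference between TyrRS-E196K and TyrRS-E196K-∆NLS was 0.13 (edgeR adjusted p = 0.474), and that between TyrRS-E196K and control was 0.22 (0.0835). The fat body sums of TyrRS-E196K and TyrRS-E196K-∆NLS did not overlap, so that this fit cannot tell fat body content from genotype. The part of fat body or of glia in the Gcn5 difference was not tested.

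The last factor, bon, is the fly member of the TRIM24, TRIM28 and TRIM33 family of transcription cofactors. It lies on chromosome 3R at 20593139 to 20612540, plus strand (FBgn0023097), and 1290 bp of its exons (22.2%) overlap CG15923 on the other strand, a gene at 1.49 to 2.48 CPM. bon had 138, 121, 112 and 123 CPM in TyrRS-E196K brains, 116, 114 and 119 CPM in TyrRS-WT brains, 103, 125, 106 and 118 CPM in TyrRS-E196K-∆NLS brains, 113, 112 and 109 CPM in TyrRS-WT-∆NLS brains, and 115, 118 and 111 CPM in control brains. The highest bon library was TyrRS-E196K replicate 1, and TyrRS-E196K overlapped with every other genotype. The log2 fold change of bon was 0.11 in TyrRS-E196K against control (interval -0.05 to 0.27), 0.13 against TyrRS-E196K-∆NLS (-0.02 to 0.28, edgeR adjusted p = 0.357) and 0.06 in TyrRS-WT against TyrRS-WT-∆NLS (-0.11 to 0.23), and none passed.

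By mean level, high to low, the order of genotypes was TyrRS-E196K, TyrRS-WT, control, TyrRS-E196K-∆NLS and TyrRS-WT-∆NLS for bon. It was control, TyrRS-WT, TyrRS-E196K, TyrRS-WT-∆NLS and TyrRS-E196K-∆NLS for E2f2, and TyrRS-E196K-∆NLS, TyrRS-E196K, TyrRS-WT, TyrRS-WT-∆NLS and control for Dp. It was TyrRS-E196K, TyrRS-WT-∆NLS, TyrRS-WT, TyrRS-E196K-∆NLS and control for Rbf, and TyrRS-E196K-∆NLS, control, TyrRS-E196K, TyrRS-WT-∆NLS and TyrRS-WT for Rbf2. In each of these orders every neighbouring pair of genotypes overlapped in its libraries, while the genotypes further apart that did not overlap, for Rbf and bon, are given above.

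The factors differed in how much they varied over the 17 libraries. The highest library was 1.26 times the lowest for Rbf, 1.34 times for bon, 1.45 times for E2f2, 1.47 times for E2f1, 1.495 times for Gcn5 and 2.59 times for Rbf2. Among these 6878 genes averaging 10 CPM or more, 8.2% had a smaller SD of log2 CPM than Rbf, 39.6% than E2f2, 52.4% than E2f1 and 62.5% than Gcn5. The genes whose log2 levels were most like those of a factor over the 17 libraries, among 6872 other genes averaging 10 CPM or more, were VhaM9.7-c for E2f1 (r = 0.81), NiPp1 for E2f2 (0.86), Edc3 for Dp (0.75), tamo for Rbf (0.84), CG14516 for Rbf2 (0.72), tank for Gcn5 (0.92) and CG42684 for bon (0.91). Next came fs(1)K10 and pAbp for E2f1, CG15514 and CG14667 for E2f2, Cap-H2 and pcs for Dp, Mio and CG12155 for Rbf, Blm and Mes-4 for Rbf2, bdg and JhI-1 for Gcn5, and sick and Fur2 for bon. Among the factors themselves the highest correlation was 0.59, between Rbf and bon.

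The complexes that Gcn5 works in were read from 27 genes of SAGA, ADA and ATAC. In TyrRS-E196K against TyrRS-E196K-∆NLS 2 of these, Ada2a and Ada1-1, passed the test upward and 0 downward, where 5.6% of all genes passed. The median log2 fold change of the 27 was 0.01, where the median of all genes tested was 0.00. In TyrRS-E196K against control 0 of the 27 passed upward and 1, Ada1-1, downward, where 6.35% of all genes passed. Ada2a, an adaptor that holds Gcn5 in the ATAC complex, had 16.8, 15.5, 15.8 and 14.7 CPM in TyrRS-E196K brains, 8.20, 6.73 and 7.52 CPM in TyrRS-WT brains, 7.68, 8.08, 7.93 and 7.35 CPM in TyrRS-E196K-∆NLS brains, 6.81, 7.43 and 8.52 CPM in TyrRS-WT-∆NLS brains, and 14.6, 15.1 and 18.2 CPM in control brains. Control and TyrRS-E196K libraries of Ada2a stood at one level and the other 3 genotypes at a lower one, with no overlap between these levels. Ada2a was higher in TyrRS-E196K than in TyrRS-WT by 1.07 ± 0.104 on the log2 scale (SE, edgeR adjusted p = 4.81e-06) and than in TyrRS-E196K-∆NLS by 1.02 ± 0.095 (1.55e-06), with an interaction of 1.04 (4.29e-04). Against control, Ada2a fell by 1.09 in TyrRS-WT, by 1.04 in TyrRS-E196K-∆NLS and by 1.07 in TyrRS-WT-∆NLS. Of its exon bases 29.5% are shared with Rpb4 on the same strand, which has 0 counts in all libraries, and how reads of the shared part were counted is not given in the sources used here.

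Ada1-1, which codes for a SAGA core subunit, had 0.212 to 0.414 CPM in TyrRS-E196K, 1.00 to 1.69 CPM in TyrRS-WT and 1.25 to 1.59 CPM in control brains, and counts of 0 to 1 in TyrRS-E196K-∆NLS and of 0 to 2 in TyrRS-WT-∆NLS libraries. It fell in TyrRS-E196K by 2.32 ± 0.362 on the log2 scale against control (SE, edgeR adjusted p = 6.75e-04) and by 2.19 against TyrRS-WT. Ada1-1 has a near-copy beside it, Ada1-2, at 3.25 to 5.15 CPM, and a split of reads between the pair is uncertain. No comparison of Ada1-2 passed the test. The other 25 genes of the list passed in no comparison, and Gcn5 itself is not in it.

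**Figure D3:**
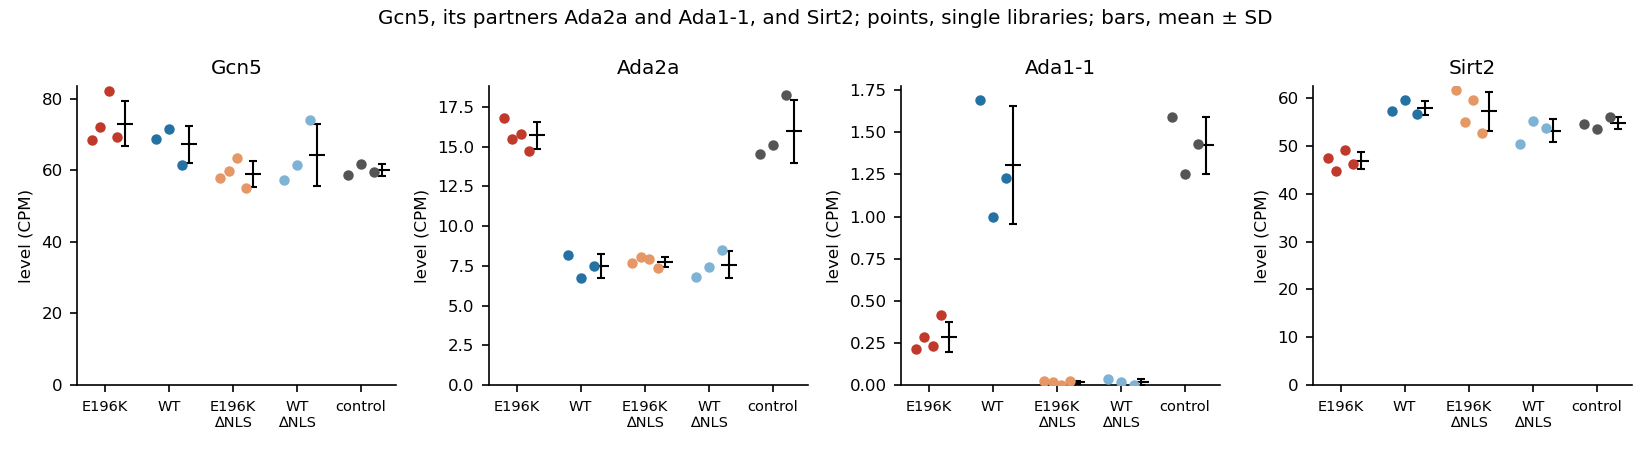
Level in CPM (vertical axes, each starting at 0) of Gcn5, Ada2a, Ada1-1 and Sirt2 in every library, by genotype. Points are single libraries and bars show the mean ± SD. Ada2a sits at 14.7 to 16.8 CPM in TyrRS-E196K and 14.6 to 18.2 CPM in control libraries and at 6.73 to 8.52 CPM in the other genotypes, and Sirt2 is at 44.8 to 49.1 CPM in TyrRS-E196K.

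Of 15 other lysine acetyltransferases and deacetylases with counts, Sirt2 passed the test, in comparisons where 1.53% to 6.35% of all genes passed. Sirt2, an NAD-dependent deacetylase, had 47.5, 44.8, 49.1 and 46.3 CPM in TyrRS-E196K brains, 57.4, 59.7 and 56.8 CPM in TyrRS-WT brains, 61.7, 55.0, 59.7 and 52.8 CPM in TyrRS-E196K-∆NLS brains, 50.5, 55.3 and 53.9 CPM in TyrRS-WT-∆NLS brains, and 54.6, 53.5 and 56.1 CPM in control brains. All TyrRS-E196K libraries of Sirt2 lay below all others. Sirt2 fell in TyrRS-E196K by 0.30 against TyrRS-WT (edgeR adjusted p = 0.0184), by 0.29 against TyrRS-E196K-∆NLS (0.0063) and by 0.22 against control (0.0499), and the interaction was -0.41 (0.0266). The call of Sirt2 against TyrRS-E196K-∆NLS held in all 25 alternatives run, while that against control was lost in 17, that against TyrRS-WT in 6 and the interaction in 9. Leaving out single libraries took the adjusted p past 0.05 for 14 libraries against control (up to 0.182), for each TyrRS-WT library and TyrRS-E196K replicates 2 and 4 against TyrRS-WT (up to 0.0852), and for 8 libraries in the interaction (up to 0.0749). Rpd3, the fly HDAC1 and also part of repressive E2F complexes, had 47.4 to 50.9 CPM in TyrRS-E196K and 50.8 to 56.4 CPM in control brains (log2 fold change -0.13, edgeR adjusted p = 0.244). Sir2, the fly Sirt1, had 120.2 to 129 CPM and 109 to 113 CPM in the same genotypes (0.18, adjusted p = 0.115). The acetyltransferase nej (CBP) did not pass in any comparison, with 232 to 313 CPM in TyrRS-E196K and 198 to 271 CPM in control brains.

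The dREAM complex, in which E2F, Dp and Rb proteins silence genes together with Myb, was read from 10 further genes. Of these, tomb, a testis relative of one of its subunits, passed the test, downward, in TyrRS-E196K and in TyrRS-E196K-∆NLS against control. In the same comparisons 6.35% and 4.79% of all genes passed. The level of tomb was 0.213 to 0.403 CPM in TyrRS-E196K, 0.238 to 0.394 CPM in TyrRS-E196K-∆NLS and 0.565 to 0.864 CPM in control brains, with 9 to 38 counts in these libraries. Without control replicate 3 both tomb calls were lost (edgeR adjusted p = 0.180 and 0.146), as was the first without TyrRS-E196K replicates 1 or 2 or control replicate 2 and the second without TyrRS-E196K-∆NLS replicates 1, 3 or 4 (0.0512 to 0.0910). The first was also lost in a fit to the compared genotypes alone (0.0801) and with the replicate block (0.0567), and the second with the fat body covariate (0.104). Of 18 genes that regulate E2F or Rb, 1 passed upward in TyrRS-WT against control, where 2.3% of all genes passed in either direction. It was gig (fly Tsc2, a growth inhibitor), at 102 to 106 CPM in TyrRS-WT and 77.7 to 90.4 CPM in control brains (0.32, edgeR adjusted p = 0.0234). The gig call was lost without any 1 TyrRS-WT library and without control replicates 1 or 3 (0.0529 to 0.114), and in a fit to the compared genotypes alone (0.152). Cks30A, a subunit of cyclin-dependent kinases, fell by 1.64 in TyrRS-E196K against control and was at 0.594 to 1.145 CPM there and 1.52 to 3.10 CPM in control brains. The Cks30A call (edgeR adjusted p = 0.035) was lost without TyrRS-E196K replicates 1, 2 or 3 and without control replicates 2 or 3 (0.0841 to 0.114), and with the fat body covariate (0.0507).

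The kinase and cyclin that phosphorylate Rbf did not pass in any comparison. Cdk4 was at 5.62 to 8.29 CPM in TyrRS-E196K, 4.13 to 7.75 CPM in TyrRS-E196K-∆NLS and 8.23 to 10.0 CPM in control brains, and its lowest adjusted p, in TyrRS-E196K-∆NLS against control, was 0.0568 (edgeR, log2 fold change -0.61). Its partner CycD was at 8.35 to 9.46 CPM in TyrRS-E196K and 10.2 to 13.3 CPM in TyrRS-E196K-∆NLS brains (-0.36, edgeR adjusted p = 0.057). The inhibitor dap, the fly p21 and p27, was at 9.48 to 14.3 CPM over all libraries. Of 17 genes that work with bon in transcription and heterochromatin, the gene for the heterochromatin protein HP1a (FBgn0003607) passed the test in 1 comparison. This was TyrRS-E196K against TyrRS-WT, where 1.62% of all genes passed. HP1a was at 57.3 to 67.4 CPM in TyrRS-E196K and 71.2 to 75.5 CPM in TyrRS-WT brains (-0.29, edgeR adjusted p = 0.0474, lost in 16 of 25 alternatives and without any 1 of 13 libraries).

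Genes known as E2F targets were read from a list of 48, of which 47 had counts and 10 of these averaged under 1 CPM. No target passed upward in any of the 9 comparisons. Downward, 1 of 47 passed in each of TyrRS-E196K against control, TyrRS-E196K-∆NLS against control and TyrRS-E196K against TyrRS-E196K-∆NLS. In these, 6.35%, 4.79% and 5.6% of all genes passed in either direction. The medians of the targets there were -0.32, 0.32 and -0.45, beside a median of 0.00 for all genes in each. The medians in TyrRS-WT and TyrRS-WT-∆NLS against control were -0.30 and -0.11, with none past the test. Higher by value than control were 5 of 47 targets in TyrRS-WT, 8 in TyrRS-E196K, 11 in TyrRS-WT-∆NLS and 33 in TyrRS-E196K-∆NLS. Of the 16163 genes tested, 7665, 7944, 7641 and 7992 were higher by value, in the same order.

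Both targets that passed against control work in the response to damaged DNA. The gene mus304, fly ATRIP, had 3.75, 5.32, 5.53 and 4.43 CPM in TyrRS-E196K brains, against 7.03, 5.63 and 8.02 CPM in control brains. These did not overlap, as for 17.3% of all genes, and mus304 fell by 0.53 ± 0.140 on the log2 scale (SE, edgeR adjusted p = 0.0282). Rad9, of the checkpoint clamp, had 2.85, 2.44, 2.57 and 3.47 CPM in TyrRS-E196K-∆NLS brains, against 4.20, 4.40 and 4.61 CPM in control brains. It fell by 0.64 ± 0.148 (SE, edgeR adjusted p = 0.0143), again with no overlap, as for 15.0% of all genes. Without control replicate 3 both calls were lost (edgeR adjusted p = 0.191 for mus304 and 0.0693 for Rad9), as they were in fits to the compared genotypes alone (0.110 and 0.0526). The mus304 call was also lost without TyrRS-E196K replicate 1 (0.0654) or 4 (0.0825) or control replicate 1 (0.0638).

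The spread of the other targets lay mostly within TyrRS-E196K-∆NLS. The median log2 difference of the 47 targets from the control mean was -0.06, 0.36, -0.52 and 0.98 in its 4 libraries, -0.41, -0.22, -0.28 and -0.03 in TyrRS-E196K, and -0.25, -0.01 and 0.30 in the control libraries. Replicate 4 of TyrRS-E196K-∆NLS was the highest of all 17 libraries and replicate 3 the lowest, while replicate 2 lay close to control replicate 3. PCNA, the replication clamp, had 0.721, 1.18, 1.29 and 2.53 CPM in TyrRS-E196K brains, 2.60, 4.52, 0.702 and 6.96 CPM in TyrRS-E196K-∆NLS brains, and 0.636, 2.20 and 2.80 CPM in control brains. CycE, the cyclin of S phase entry, had 3.97, 5.06, 4.16 and 5.31 CPM, 3.83, 7.50, 2.37 and 11.5 CPM, and 5.05, 6.02 and 6.48 CPM in the same order of genotypes, and neither PCNA nor CycE passed in any comparison.

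The mitotic phosphatase gene stg (Cdc25) fell by 2.33 ± 0.499 on the log2 scale in TyrRS-E196K against TyrRS-E196K-∆NLS (SE, edgeR adjusted p = 0.0125), at 1.23, 1.33, 0.768 and 1.80 CPM in TyrRS-E196K brains and 3.74, 8.15, 1.63 and 12.3 CPM in TyrRS-E196K-∆NLS brains, which overlapped. The call was lost in a fit to these genotypes alone (-2.34, edgeR adjusted p = 0.107) and with the fat body covariate (-1.83, adjusted p = 0.172). In TyrRS-E196K-∆NLS the dividing cell markers summed to 33.1, 48.5, 31.5 and 61.4 CPM, highest in replicates 4 and 2, and their part in the target levels was not tested. Without TyrRS-E196K-∆NLS replicate 4 the median of the 47 targets was 0.02 in TyrRS-E196K-∆NLS against control and -0.17 in TyrRS-E196K against TyrRS-E196K-∆NLS, where it was -0.68 without replicate 3 of TyrRS-E196K-∆NLS. Without control replicate 3 it was -0.09 in TyrRS-E196K, -0.14 in TyrRS-WT and 0.03 in TyrRS-WT-∆NLS against control. In TyrRS-E196K against control it was -0.21 without TyrRS-E196K replicate 1. In TyrRS-WT-∆NLS against control it was -0.27 without control replicate 1, and -0.05, -0.21 and -0.20 without replicate 1, replicate 2 or the unnumbered library of TyrRS-WT-∆NLS.

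**Figure D4:**
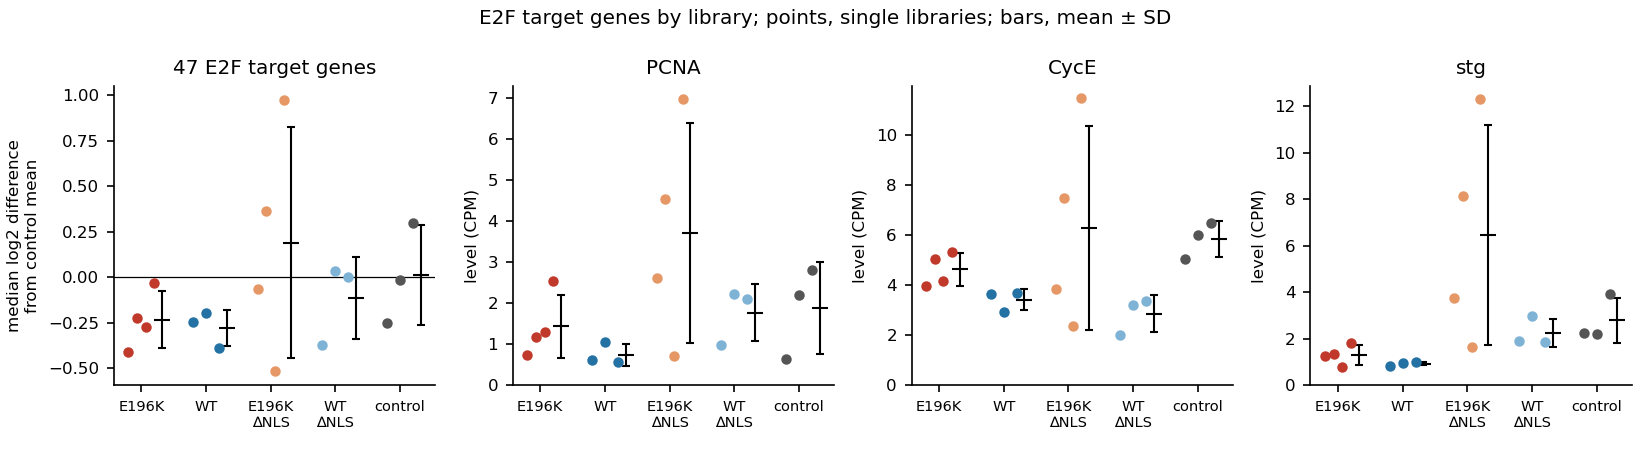
Left, median log2 difference of 47 E2F target genes from the control mean in each library. Right, levels in CPM (axes starting at 0) of PCNA, CycE and stg. Points are single libraries and bars show the mean ± SD of the genotype. The libraries of TyrRS-E196K-∆NLS lie between -0.52 and 0.98 in the median, and stg is at 0.768 to 1.80 CPM in TyrRS-E196K and at 1.63 to 12.3 CPM in TyrRS-E196K-∆NLS libraries.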

How the data were processed

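RNA of dissected brains was sequenced from poly(A)-enriched, unstranded libraries. According to the submitters' processing notes, the authors trimmed reads (Trimmomatic 0.32, FastQC), aligned them to BDGP6 (TopHat2 2.0.12) and counted them per gene (HTSeq 0.6.1). The deposited counts are raw and were analysed as deposited, and a deposited table of normalized values was not used. The 6 lines of the count table that name no gene were left out. Libraries were sequenced in batches, and the study had a batch factor in its own DESeq2 fit. The batch of each library is not given in the sources used here, so that no batch term was fitted. Without these assignments, a part of batch in the differences cannot be told apart from genotype here. The study's methods name 3 libraries as outliers that were set aside, and 17 libraries were analysed here.

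All 17 libraries entered a single edgeR 4.0.16 quasi-likelihood fit (R 4.3.3, limma 3.58.1) with genotype as the only factor, TMM scaling, a robust estimate of the spread and Benjamini-Hochberg adjustment over the 16163 genes with any count, at 0.05. Levels are CPM, a prior count of 2 was added before log2 CPM were correlated, and intervals are 95%. The script was tested on simulated data. Tables were made with Python 3.11.15, numpy 2.4.6, pandas 2.3.3 and scipy 1.17.1. Alternatives were DESeq2 1.42.0 (its size factors, and its Wald test), filterByExpr, 1 surrogate variable (sva 3.50.0), the compared genotypes alone, the replicate number as a block, a looser threshold of 0.1 and each library left out in turn. The robust estimate was chosen after both fits had been seen, to process the files as in an earlier account of them, and no call on the 7 factors differs without it. The non-robust fit and the fit with fat body markers as a covariate were added after seeing the data. The factors, gene lists and markers were chosen with earlier results of these data known. Outside the 7 factors, genes were named when called in a comparison (at most 8 per list), plus Rpd3, Sir2, nej, CycD, Cdk4, CycE, dap, PCNA and Rad9, and the 3 genes most correlated with each factor. An item of this rule and of the E2F target list is not reported here.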

Additional observations from a re-analysis of the deposited data

Results flagged for a closer look

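A library stood apart from the other 3 of its genotype by Dixon's 95% criterion for 3 of 50 groups of 4 libraries tested, and chance gives about 1 in 20. E2f2 was highest in TyrRS-E196K replicate 3 at 21.27 CPM (ratio of gap to range 0.873). Cks30A was highest in TyrRS-E196K replicate 4 at 1.145 CPM (0.858), and the gene for HP1a (FBgn0003607) in TyrRS-E196K replicate 3 at 67.41 CPM (0.845). TyrRS-E196K replicate 3 was also the library with the lowest fat body marker sum (13660 CPM) and the highest Gcn5 level (82.2 CPM).

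Among the genes named here, the NLS difference was unlike with and without the mutation for 2, by the interaction term of the edgeR fit. TyrRS-E196K and TyrRS-E196K-∆NLS also differed in copy number (1 and 3), while TyrRS-WT and TyrRS-WT-∆NLS did not. Effects of mutation and copy number on this term cannot be told apart. For Ada2a the NLS difference was larger with the mutation by 1.037 on the log2 scale (edgeR adjusted p = 4.29e-04). For Sirt2 it was lower by a difference of -0.41 (edgeR adjusted p = 0.0266), a call lost in 9 of 25 alternatives.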

How the results depend on the processing

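Over 63 comparisons of the 7 factors and 25 alternatives, 1462 of 1575 values kept direction and call, 6 lost the call (Gcn5, TyrRS-E196K against TyrRS-E196K-∆NLS), 3 gained one (Gcn5, TyrRS-E196K against control) and 104 changed sign, none of them called, with Rbf2 at -0.292 the farthest from 0. The number of factors called in TyrRS-E196K against control was 0, and 1 with DESeq2's Wald test (Gcn5 adjusted p = 0.0229), with the replicate block (0.0361) and at an adjusted p under 0.1, and 0 to 1 with single libraries left out (1 without the unnumbered TyrRS-WT-∆NLS library, 0.035). In TyrRS-E196K against TyrRS-E196K-∆NLS it was 1, and 0 with the fat body covariate and 0 to 1 with single libraries left out. Causes were not tested. Same-numbered libraries did not deviate together (27 pairs, correlations -0.554 to 0.551, mean 0.002), so that the numbers do not pair the libraries. The block changed no other call on the factors. Rbf2 had the fewest counts of the 7 factors, 65 to 177 in a library.

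The remaining values are uncalled log2 fold changes of other sign. With the fat body covariate, E2f1 was -0.069 (TyrRS-E196K against TyrRS-E196K-∆NLS), 0.014 (TyrRS-E196K-∆NLS against TyrRS-WT-∆NLS) and -0.092 (interaction), E2f2 -0.05 and 0.042 in the first and second of these, Dp -0.001 and -0.006 (TyrRS-E196K against control and TyrRS-WT), Gcn5 0.082 and 0.008 (TyrRS-E196K-∆NLS against control and TyrRS-WT-∆NLS) and bon -0.059 (TyrRS-E196K-∆NLS against TyrRS-WT-∆NLS). With the replicate block, E2f1 was 0.05 (TyrRS-E196K-∆NLS against TyrRS-WT-∆NLS) and -0.094 (interaction), E2f2 0.003 (interaction), Dp -0.018 (TyrRS-WT-∆NLS against control), Rbf -0.001 and Rbf2 -0.166 (TyrRS-E196K-∆NLS against control), Rbf2 0.019 (TyrRS-E196K against TyrRS-E196K-∆NLS), and Gcn5 -0.002, 0.002 and 0.004 (TyrRS-WT-∆NLS and TyrRS-E196K-∆NLS against control, and TyrRS-E196K-∆NLS against TyrRS-WT-∆NLS). With 1 surrogate variable, E2f2 was 0.018 and Dp 0.006 (interaction), Dp -0.01 (TyrRS-WT against TyrRS-WT-∆NLS), Rbf2 -0.02 (TyrRS-E196K-∆NLS against control) and bon -0.009 (TyrRS-E196K-∆NLS against TyrRS-WT-∆NLS). Dp in TyrRS-WT-∆NLS against control was -0.006 with filterByExpr, -0.008 with DESeq2 size factors and -0.007 with its Wald test, and 0.002 with both in TyrRS-E196K against TyrRS-E196K-∆NLS.

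With single libraries left out, and in the order TyrRS-WT, TyrRS-E196K, TyrRS-WT-∆NLS and TyrRS-E196K-∆NLS against control, E2f2 ran from -0.079 to 0.123, -0.111 to 0.094, -0.134 to 0.078 and -0.154 to 0.052, Dp from -0.003 to 0.028, -0.003 to 0.044, -0.023 to 0.044 and -0.006 to 0.041, and E2f1, in the first 3, from -0.188 to 0.079, -0.244 to 0.02 and -0.216 to 0.057. Against control, TyrRS-E196K-∆NLS ran from -0.022 to 0.057 for Rbf, -0.292 to 0.194 for Rbf2, -0.072 to 0.007 for Gcn5 and -0.083 to 0.021 for bon. Also against control, Rbf2 ran from -0.136 to 0.016 in TyrRS-E196K, Gcn5 from -0.013 to 0.175 in TyrRS-WT-∆NLS and bon from -0.003 to 0.045 in TyrRS-WT. TyrRS-E196K against TyrRS-WT ran from -0.01 to 0.026 for Dp, and against TyrRS-E196K-∆NLS from -0.025 to 0.023 for Dp and -0.231 to 0.256 for Rbf2. TyrRS-WT against TyrRS-WT-∆NLS ran from -0.063 to 0.103 for E2f1, -0.064 to 0.121 for E2f2, -0.032 to 0.035 for Dp and -0.012 to 0.176 for Gcn5. TyrRS-E196K-∆NLS against TyrRS-WT-∆NLS ran from -0.166 to 0.0 for E2f1, -0.134 to 0.051 for E2f2, -0.023 to 0.043 for Dp, -0.139 to 0.348 for Rbf2 and -0.047 to 0.058 for bon. The interaction ran from -0.056 to 0.111 for E2f1, -0.08 to 0.105 for E2f2, -0.04 to 0.027 for Dp and -0.032 to 0.455 for Rbf2.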
